A study of Homo sapiens with 25 samples.

Results

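The step from embryonic stem cells to definitive endoderm was examined through H3K4me2, in 4 of the 21 libraries of the series that have a peak list. Stages with 2 libraries each were compared: hESC, undifferentiated cells of H1, a long-established human line of embryonic stem cells, and hDE, definitive endoderm made from the same line in a directed course towards pharyngeal foregut endoderm. Both stages share this single line, and no label names the culture agents or days. Each library came from cross-linked, sonicated chromatin precipitated with an H3K4me2 antibody. A peak of the 4 lists on chromosomes 1 to 22 and X was merged with every peak it overlapped, which gave 216442 regions. A region was called gained when both hDE lists and neither hESC list held a peak there, and lost in the reverse case. This gave 9587 gained and 17375 lost regions, beside 31092 regions present in all 4 lists. Of these, 8057 gained, 13132 lost and 7324 constant regions were distal, meaning more than 2 kb from either annotated end of any gene. The labels do not say whether replicates were separate cultures, so spread and p-values measure only the difference between these libraries, which may be technical.

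H3K4me2 is dimethylation of lysine 4 on histone H3, laid down by MLL and SET1 family methyltransferases. It marks both promoters and enhancers, on the flanks of an active promoter's start site and across enhancers that are active or merely primed. H3K27ac marks the active ones among these elements, and H3K27me3 is the Polycomb mark that covers silent developmental genes in stem cells. Definitive endoderm, the source of the gut tube, lung, liver and pancreas, forms under Nodal signalling through a primitive-streak-like state in which EOMES, GSC and MIXL1 are switched on ahead of GATA6, SOX17 and FOXA2.

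Most gained and lost regions lay away from gene ends. Of gained regions 84.0% were distal, and of lost regions 75.6%, whereas 23.6% of the constant regions were. Among the 28513 distal regions that were gained, lost or constant, 28.3% were gained and 46.1% were lost. The excess of losses has to be read beside the extent of the lists, since the hESC lists covered 50.7 and 51.0 Mb and the hDE lists 37.3 and 34.6 Mb. With all 4 lists cut to the same number of peaks, 7158 distal regions were gained and 9889 lost. Replicates overlapped imperfectly: the Jaccard index of covered bases was 0.5 between the hESC lists and 0.427 between the hDE lists, against 0.314 to 0.358 between stages. Of distal regions with a peak in hDE replicate 1 and none in hESC, 23.3% also had one in replicate 2.

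The changed regions were small and of middling strength. Median width was 374 bp for gained distal regions and 418 bp for lost ones, against 972 bp for constant ones. Ranked within its own list by the deposited p-value (0 is the strongest peak, 100 the weakest), the median gained region stood at 53.7 and 54.4 in the hDE lists. The median lost region stood at 48.9 and 57.8 in the hESC lists. Constant distal regions stood at 22.1 to 29.8. Fold enrichments printed from here on are the authors' own values of signal over input for a peak in its list, given for replicate 1 and then replicate 2, and they are not compared between lists.

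The distal regions that gained H3K4me2 were mostly regions that were acetylated in hDE. A peak of H3K27ac lay on 68.3% and 67.4% of gained distal regions in the 2 hDE libraries, and on 4.46% and 2.71% in the hESC libraries. In all, 56.2% had H3K27ac in both hDE libraries and neither hESC library, against 13.5% of constant distal regions and 1.66% of lost ones. The match was not complete, since 21.3% of gained distal regions had no H3K27ac peak in any of 8 libraries of 4 stages. To allow for lists of different length, the percentage on constant distal regions was subtracted in each library. The hDE libraries then stood at 13.7 and 9.98 points, and the 6 libraries of hESC and of the 2 later stages, hAFE (anterior foregut endoderm) and hPFE (pharyngeal foregut endoderm), at −37.5 to −16.5. The 2 sets of libraries did not overlap and differed by 40.5 points. The two-sided exact permutation test over libraries gave p = 0.0357, the smallest that 2 against 6 libraries allow, and 0.0952 after Benjamini-Hochberg adjustment over 4 tests, so the difference did not pass 0.05. Regions called from a single hDE H3K4me2 library gave smaller differences, of 9.73 points without hDE replicate 1 and 10.6 without hDE replicate 2 (exact p = 0.179 and 0.143).

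Part of the lost distal regions had been acetylated in stem cells. H3K27ac peaks covered 38.4% and 27.7% of lost distal regions in the hESC libraries and 8.15% and 8.96% in the hDE libraries. In all, 17.3% were acetylated in both hESC libraries and neither hDE library, although this share was 3.00% among constant regions and 0.0869% among gained ones. No H3K27ac peak in any of the 8 libraries fell on 45.4% of lost distal regions, against 25.0% of constant ones. After the same subtraction the hESC libraries stood 25.8 points above the others (exact permutation p = 0.0714, adjusted 0.0952). It was 15.5 points without hESC H3K4me2 replicate 1 and 12.5 without replicate 2 (exact p = 0.107 and 0.179). The labels mark the H3K27ac and H3K27me3 data of hESC, and not the H3K4me2 data, as re-analysed, so for these 2 marks batch and stage cannot be told apart.

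Few gained or lost distal regions carried the Polycomb mark. H3K27me3 was present in both hESC libraries at 1.65% of gained and 4.47% of lost distal regions, but at 23.1% of constant distal regions. Of the gained regions 1.30%, or 105, had the mark in both hESC and neither hDE library. Subtracting constant regions put the hESC libraries 6.78 points below the other stages on gained regions (exact permutation p = 0.0476, the smallest that 2 against 5 libraries allow, adjusted 0.0952). That sign rests on the subtraction, since without it the difference was 1.41 points in the other direction. For H3K27me3 on lost regions in hDE against the other stages, the difference was 2.78 points (exact p = 0.429, adjusted 0.429) and −0.649 without subtraction.

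Regions of better rank had H3K27ac more often and were also wider. With gained distal regions split by rank into 4 equal bins, the share with H3K27ac in both hDE libraries was 78.2% in the strongest bin, then 63.6%, 56.6% and 44.2%. For lost regions the share with H3K27ac in both hESC libraries went from 33.6% through 22.4% and 18.5% to 12.7%. Median width went from 474 to 327 bp over the gained bins and from 599 to 340 bp over the lost bins, and its part in the overlap was not tested.

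Few gained distal regions were found again at the later stages. The single hAFE library had an H3K4me2 peak on 15.1% of gained distal regions and the single hPFE library on 7.92%, against 73.8% and 67.7% of constant distal regions. H3K27ac on gained regions stood at 8.77% and 5.63% in hAFE and at 8.28% and 13.3% in hPFE. For lost regions the H3K4me2 peak was back in 12.3% in hAFE and 9.76% in hPFE. The later H3K4me2 shares rest on 1 library per stage. A second hDE library recovered 20.2% to 23.3% of regions chosen from 1 hDE library. That set is not like the gained regions, which have peaks in both hDE libraries by rule. How many gained regions a further hDE library would recover is not known.

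**Figure D1:**
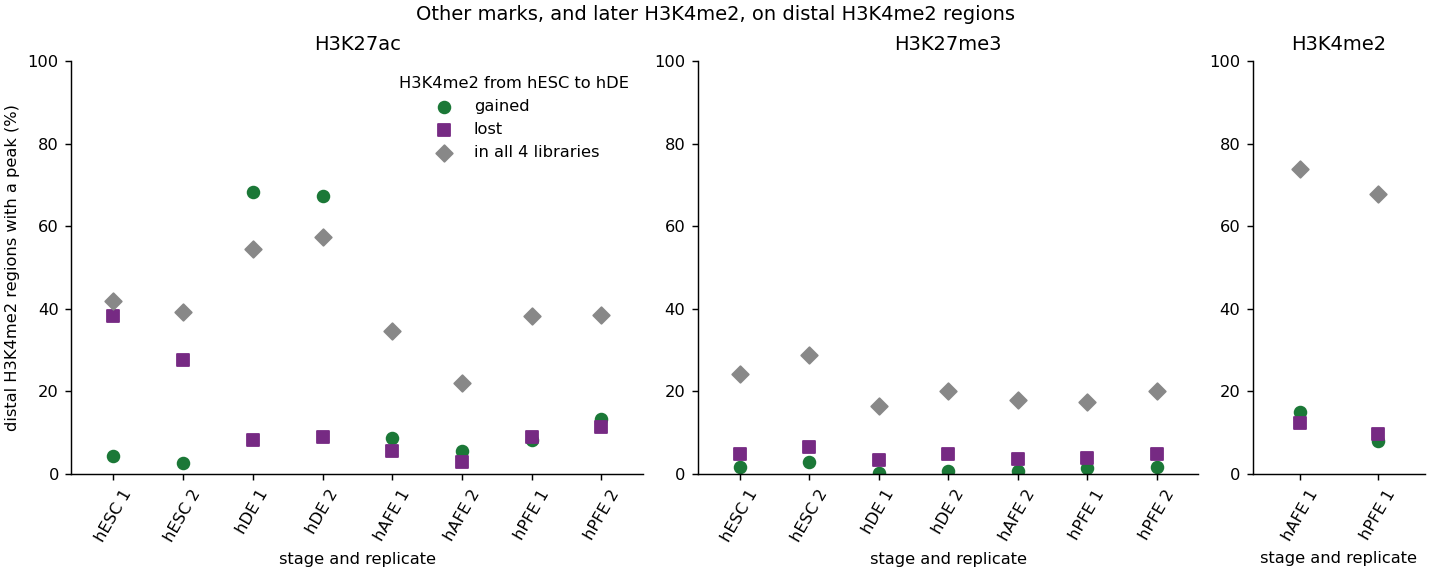
Percentage of distal H3K4me2 regions that hold a peak of H3K27ac, H3K27me3 or later-stage H3K4me2, for each library on the horizontal axis. Circles are the 8057 gained regions, squares the 13132 lost regions and diamonds the 7324 regions in all 4 lists; the circles exceed the diamonds only in the 2 hDE H3K27ac libraries (68.3% and 67.4%).

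Each distal region was given to the protein-coding gene whose annotated end lay nearest to its centre, a neighbour by position and not a shown target. Gained regions went to 4041 genes, 20.2% of the 19970 protein-coding genes, and 912 genes (4.57%) received 3 or more. Lost regions went to 5957 genes (29.8%), and 1565 genes (7.84%) received 3 or more. Changed regions lay farther out than constant ones, with a median distance of 43827 bp for gained and 38163 bp for lost against 19175 bp. A gained region lay inside its nearest gene in 51.6% of cases.

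Definitive endoderm genes had the highest share of gained distal regions among 14 gene lists. The lists were chosen with earlier results of these data known. Of 213 distal regions nearest to the 36 definitive endoderm genes, 119 were gained, 47 lost and 47 constant. Thus 55.9% were gained, against 28.3% over all genes. At least 1 gained region lay nearest to 23 of the 36 genes, and 15 of the 36 received 3 or more. The share lay above that of all genes under each of the 11 alternative settings, from 33.2% to 77.4% against 12.4% to 62.9%. These 15 were the zinc finger regulators GATA6 (16 gained regions) and GATA4 (7), the repressor PRDM1 (15), the growth factor BMP2 (13), the pioneer factor FOXA2 (10), the adhesion protein FLRT3 (7), the receptor ERBB4 (7), the receptor KIT (5), KLF5 (5), ARHGAP24 (5) and STMN2 (4), and GSC, NTN4, DKK1 and OTX2 with 3 each. Of these, OTX2 had more lost regions, 10, than gained ones, and 4 constant. SOX17, HHEX, LHX1 and FOXA1 were among those with none by this assignment.

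GATA6, which specifies endoderm, had 16 gained distal regions and no lost or constant one. They spread over chromosome 18 from 22025283 to 22199146 (hg38), 10 of them inside the gene and 6 outside. The strongest covered 22192708 to 22193157, with fold enrichments of 4.10 and 5.20. H3K27ac lay on 12 of the 16 in both hDE libraries and on none in either hESC library. Over all gained distal regions, 60.6% had H3K27ac in both hDE libraries, the share to set beside such counts at single genes below. No H3K27ac in either hESC library was found on 94.1%. H3K27me3 in both hESC libraries lay on 3 of them, whose centres were 4247, 5623 and 6695 bp from the nearer end of GATA6. With peaks limited to −log10 p of 5 or more, GATA6 had 5 gained regions.

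The most gained regions of any gene lay nearest to CDH2, N-cadherin, an adhesion protein that epithelial cells take on when they pass through the streak. CDH2 received 31 gained, 4 lost and no constant regions, 24 of the gained ones inside the gene. The strongest ran from 28063473 to 28065162 on chromosome 18, with fold enrichments of 6.50 and 6.13. H3K27ac lay on 19 of the 31 in both hDE libraries, near the 60.6% of all gained distal regions, and on 1 in both hESC libraries. CDH1, E-cadherin, had no gained region, 3 lost and 1 constant, and all 3 lost regions had H3K27ac in both hESC libraries. CDH2 alone supplied 31 of the 49 gained regions of the cadherin and EMT list, of which 43.8% were gained.

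PRDM1, a transcriptional repressor, received 15 gained regions, 1 lost and 6 constant. BMP2, a ligand of the BMP pathway, received 13 gained and 1 lost, 11 of the gained with H3K27ac in both hDE libraries. Of the other BMP ligand genes, BMP4 had no gained and 4 lost regions, and BMP7 had 3 gained, 5 lost and 4 constant. FOXA2, which opens chromatin for endoderm genes, received 10 gained regions over 22425929 to 22664006 of chromosome 20, 6 lost and 4 constant. Its strongest gained region lay 5773 bp from the gene, with fold enrichments of 4.97 and 7.19, and carried H3K27ac in both hDE libraries and H3K27me3 in both hESC libraries. At FOXA2, 5 of the 10 gained regions had H3K27me3 in both hESC libraries, against 1.65% of all gained distal regions. GSC, a homeodomain factor of the streak, had 3 gained regions and no other. The strongest of these ran from 94762487 to 94763247 on chromosome 14, with fold enrichments of 4.62 and 6.08.

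Outside the lists, the genes with most gained regions were AUTS2 (27), the teneurin genes TENM4 and TENM2 (19 each), the WNT5A receptor ROR2 (16), the adhesion gene CADM1 (15), the phosphatase gene PTPRM (14), the hyaluronan synthase gene HAS2 (14), the plexin gene PLXNA2 (11), FREM1 (11), MGST2 (11) and the talin gene TLN2 (11). They differed in what else lay nearby. At ROR2, 16 of 18 distal regions were gained and 15 of the 16 had H3K27ac in both hDE libraries. FREM1 had no lost region, and all 11 gained ones had H3K27ac in both hDE libraries. AUTS2 and TENM2 also collected 10 and 14 lost regions.

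**Figure D2:**
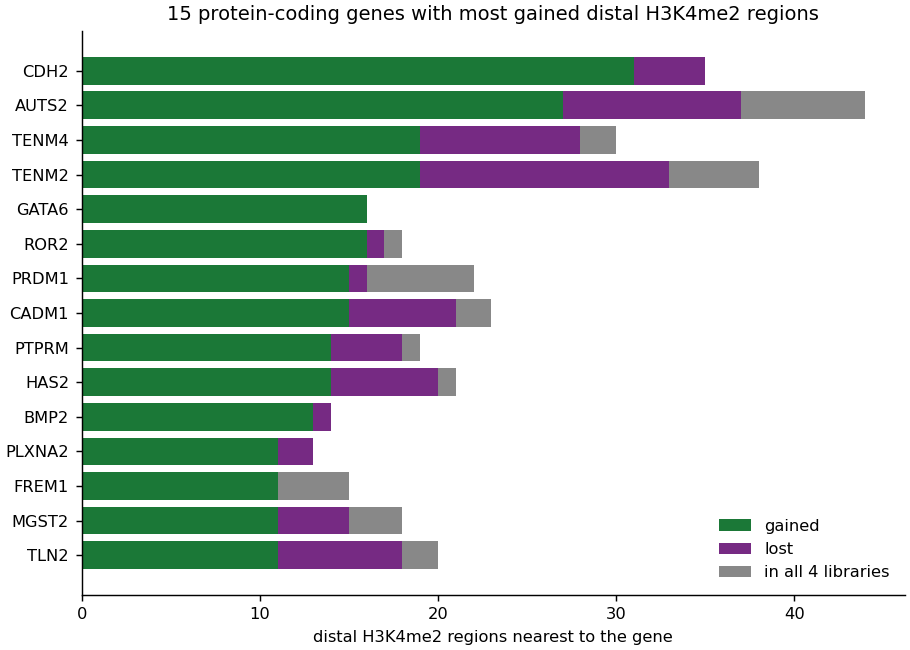
Number of distal H3K4me2 regions nearest to each gene (horizontal axis), stacked as gained, lost and present in all 4 lists, for the 15 genes with most gained regions. GATA6 consists of 16 gained regions, while CDH2 has 31 gained of 35.

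Among the genes with many lost regions were RBFOX1, TLE4 and EFNA5 with 20 each, MAGI1 and LOC124903233 with 19, ROBO1 and JARID2 with 18, FANCL with 17, and RORB, TCF4, CTNND2 and ZFHX3 with 16. At LOC124903233, 15 of the 19 had H3K27ac in both hESC libraries, against 21.8% of all lost distal regions. RORB, which encodes a nuclear receptor, had 16 lost regions and no gained or constant one. Of these, 8 formed a group of 9.02 kb on chromosome 9 from 74084303 to 74093318, 404 kb from the gene. All 8 had H3K27ac in at least 1 hESC library, 6 of them in both, and none in hDE.

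Near pluripotency genes, as over all genes, lost regions outnumbered gained ones. Of 128 distal regions nearest to 30 pluripotency genes, 16.4% were gained and 51.6% lost, against 28.3% and 46.1% over all genes. SOX2, a core pluripotency factor that neural cells keep, had 14 lost, 4 gained and 4 constant regions. FGF2, the growth factor that maintains human stem cells, had 8 lost regions and no other, 3 of them with H3K27ac in both hESC libraries. LIN28B and FOXD3 had 4 lost and no gained regions each. Not every gene of the list went this way, since PODXL had 7 gained and 6 lost regions, and SALL4 had 3 of each. POU5F1 had 2 lost regions, both inside the annotated gene, and NANOG had no distal region of any class.

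Neural genes had the lowest share of gained regions among the lists, 10.2% of 176. Their lost share of 44.9% was near the 46.1% over all genes. Constant regions numbered 79 of the 176, against 7324 of 28513 over all genes. The neural genes included POU3F1 (8 lost, no gained), ZIC1 and POU3F3 (5 lost, no gained) and OLIG3 (4 lost, no gained). SOX11 had 6 gained and 5 lost, and PAX6 had 2 gained and no lost. Mesoderm, heart and blood genes had 16.3% gained and 41.5% lost, later endoderm organ genes 18.4% and 46.3%, and primitive streak genes 23.1% and 32.7%. FGF, WNT, BMP and Nodal and TGF-beta genes lay between 27% and 36.3% gained. Among the last of these, the activin receptor gene ACVR2A had 8 gained regions and SMAD3, the Nodal signal transducer, had 4. INHBA, an activin subunit gene, had 6 lost and no gained. Genes that belong to 2 lists are counted in both.

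**Figure D3:**
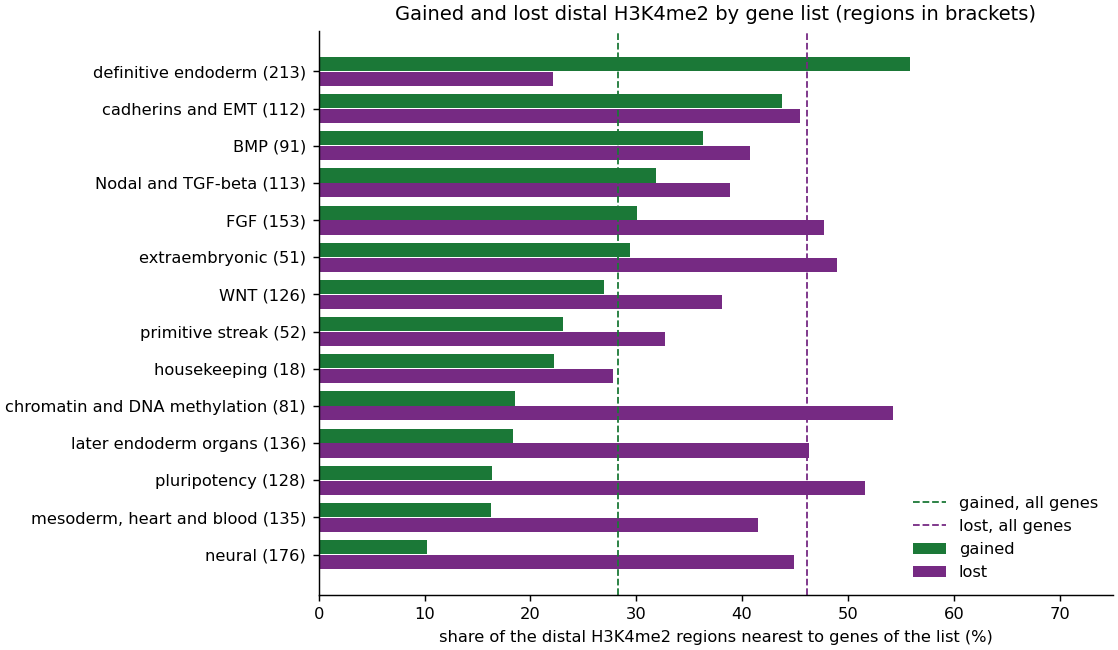
Share of the distal H3K4me2 regions nearest to the genes of each list that were gained or lost from hESC to hDE; the number of regions stands in brackets, and dashed lines give the shares over all protein-coding genes (28.3% gained, 46.1% lost). Definitive endoderm genes reach 55.9% gained and neural genes 10.2%.

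The strongest gained distal regions did not lie at the best known endoderm genes by nearest end. Of the 12 with the best mean rank, 1 on chromosome 8, 54221427 to 54224688 (6.40 and 9.76), lay between MRPL15, 74.5 kb away, and SOX17, 235 kb away on the other side. SOX17 is the endoderm regulator that had no gained region of its own by nearest end. This region kept H3K27ac in both hPFE libraries and 1 hAFE library.

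Other regions of these 12 lay nearest to S1PR3, HIF3A, MGST2, DCP2, NUTF2P4, GALC, A2ML1, NFASC, MDGA2 and DNAJC15. That at S1PR3, a sphingosine-1-phosphate receptor gene, covered 88993382 to 88996805 on chromosome 9 (8.01 and 7.22). That near HIF3A covered 46273518 to 46274678 on chromosome 19 (9.73 and 7.09). The region inside DNAJC15, 43056051 to 43059227 on chromosome 13 (6.05 and 9.82), had EPSTI1 as its other neighbour, 65.4 kb away. It was the one region of the 12 with H3K27ac in both hAFE and both hPFE libraries. All 12 had H3K27ac in both hDE libraries, and 1, near NUTF2P4, also in both hESC libraries. Under the alternatives tried, the calls near HIF3A, NUTF2P4, GALC, A2ML1 and NFASC and the one near MRPL15 and SOX17 stood in each of 11, and the others ended where absence had to reach 1 kb or where distal meant over 5 kb.

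The strongest lost distal regions were less alike. First was a region of 3372 bp, 55574949 to 55578320 on chromosome 13 (9.88 and 9.37), 590 kb from the nearest protein-coding gene, LOC124903233, with H3K27ac in both hESC libraries and none later. Regions near SSTR1 (chromosome 14, 38194019 to 38194963, 10.1 and 10.2), in PRKG1 274 kb from DKK1 (chromosome 10, 52039506 to 52041762, 8.40 and 9.56) and in SEM1 (chromosome 7, 96590307 to 96592883, 8.24 and 11.9) showed the same pattern. Others had H3K27me3 instead. The region in LHX9, a homeobox gene, and that at GPR4 had H3K27me3 in both hESC and both hDE libraries, without H3K27ac. Of the 12, near SAMD9, ARHGAP40, CALCOCO1, ARHGAP45, EML2 and CD53 besides those named, none had H3K27ac in hDE.

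At gene ends the mark was nearly constant. Protein-coding genes with an H3K4me2 peak within 1 kb of either annotated end numbered 14792 and 14896 in the hESC libraries and 13988 and 14321 in the hDE libraries, and 13467 genes had one in all 4. Of 4759 genes unmarked in both hESC libraries, 90 were gained in hDE, which is 1.89% of these and 0.451% of all protein-coding genes. Of 14477 genes marked in both hESC libraries, 408 were lost, which is 2.82% of these and 2.04% of all. No gene of the 14 lists was gained, but a list held only 0 to 8 genes unmarked in both hESC libraries. At a share of 1.89% over all genes, so few genes cannot show a difference from the rest. Lost genes made up 0% to 7.69% of the marked genes of a list, against 2.82% over all genes. The lists lost 10 genes: CDH2 and the claudin gene CLDN4, the pluripotency genes DPPA4 and GDF3, the WNT pathway genes RSPO1 and NOTUM, FGF23, the heart factor gene TBX5, and CDX1 and CDX4, homeobox genes of the posterior axis.

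The defining genes of both cell types were marked at both stages. Ends of POU5F1, SOX2 and NANOG, and of SOX17, FOXA2, CXCR4, EOMES, CER1, GSC and MIXL1, had an H3K4me2 peak in all 4 libraries, and GATA6 lacked one only in hDE replicate 1. At SOX17, the fold enrichment of the strongest peak was 5.50 and 7.53 in hESC and 4.86 and 8.32 in hDE. These hESC and hDE peaks did not overlap each other. The ends of the trophoblast genes CGA, GCM1, ELF5 and VGLL1 had no H3K4me2 in any of the 4 libraries, while those of neural PAX6 and SOX1 had it in all 4. Of the 18 genes of the extraembryonic list, however, 9 had it in all 4, HAND1 among them. The blood and endothelial genes TAL1 and KDR also had it in all 4, and CDH5 in none. Presence of H3K4me2 at the ends of these genes did not separate the labelled stages. The other marks differed between stages at most of the defining genes. SOX17, CXCR4, GATA6, EOMES, CER1 and GSC had H3K27ac in both hDE and no hESC library, and H3K27me3 in both hESC and no hDE library. FOXA2 had the same change in H3K27ac but H3K27me3 in both libraries of both stages. POU5F1 had H3K27ac in both hESC and no hDE library, and NANOG in all 4. Over the definitive endoderm list, 22 of 36 genes (61.1%) had H3K27ac in both hDE and neither hESC library, against 6.75% of all protein-coding genes. None of these 36 genes was gained or lost in H3K4me2, with 2 unmarked and 32 marked in both hESC libraries. Of the 36, 17 (47.2%, against 4.28% of all genes) had H3K27me3 in both hESC and neither hDE library. H3K27me3 in all 4 libraries was found at 6 of the 36 (16.7%, against 12.2% of all genes).

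At GSC, EOMES and GATA6, described here, the peaks lay at different places in the 2 stages. The strongest peaks at the ends of SOX17, FOXA2, CER1 and the pluripotency gene SOX2 also did not overlap between stages. Positions here are in bp from the annotated start, negative before it. At GSC, an hESC replicate 2 peak ran from −781 to 1856 bp, and replicate 1 had peaks from −2237 to −133 bp and from 403 to 2200 bp. In hDE the nearest peaks ended at −792 and −732 bp and began at 1583 and 2387 bp. At EOMES, the T-box factor of the streak, hESC peaks ended at −17 bp in replicate 1 and ran from −1370 to 360 bp in replicate 2. The hDE peaks of EOMES ended at −574 and −644 bp and began again at 1952 and 1972 bp. At GATA6 the hDE libraries had no peak between −2539 and 3156 bp in replicate 1 and none between −701 and 2993 bp in replicate 2. A single hESC replicate 2 peak covered −2412 to 2192 bp of GATA6. At all 3 genes hESC had peaks close to the start, where hDE had none, and hDE had peaks farther out on both sides.

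The same count was made for every protein-coding gene with a start and strand in the RefSeq promoter table, 15811 in all, a view chosen after these positions were seen. A peak within 250 bp of the start was present in both hESC and neither hDE library at 1100 genes (6.96%), and in the reverse at 77 (0.487%). Of 25 definitive endoderm genes in the table, 5 lost the peak at the start in this way, namely CER1, EOMES, FOXA3, GATA6 and GSC (20.0%). EOMES, GATA6 and GSC are the genes whose positions led to this count, and without them it was 2 of 22 (9.09%), against 8.1% of the genes marked in all 4 libraries. All 5 had peaks on both sides of the start, between 250 bp and 5 kb, in both hDE libraries. They also had them in both hESC libraries, and most of the 25 genes had them in all 4. VTN was the one gene of the 25 in the reverse direction. Over the 10973 tabled genes marked in all 4 libraries, 73.5% and 80.9% had a peak within 250 bp of the start in the hESC libraries and 60.4% and 62.5% in the hDE libraries. The wider coverage of the hESC lists, given above, moves with this difference, and its part in it was not tested.

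**Figure D4:**
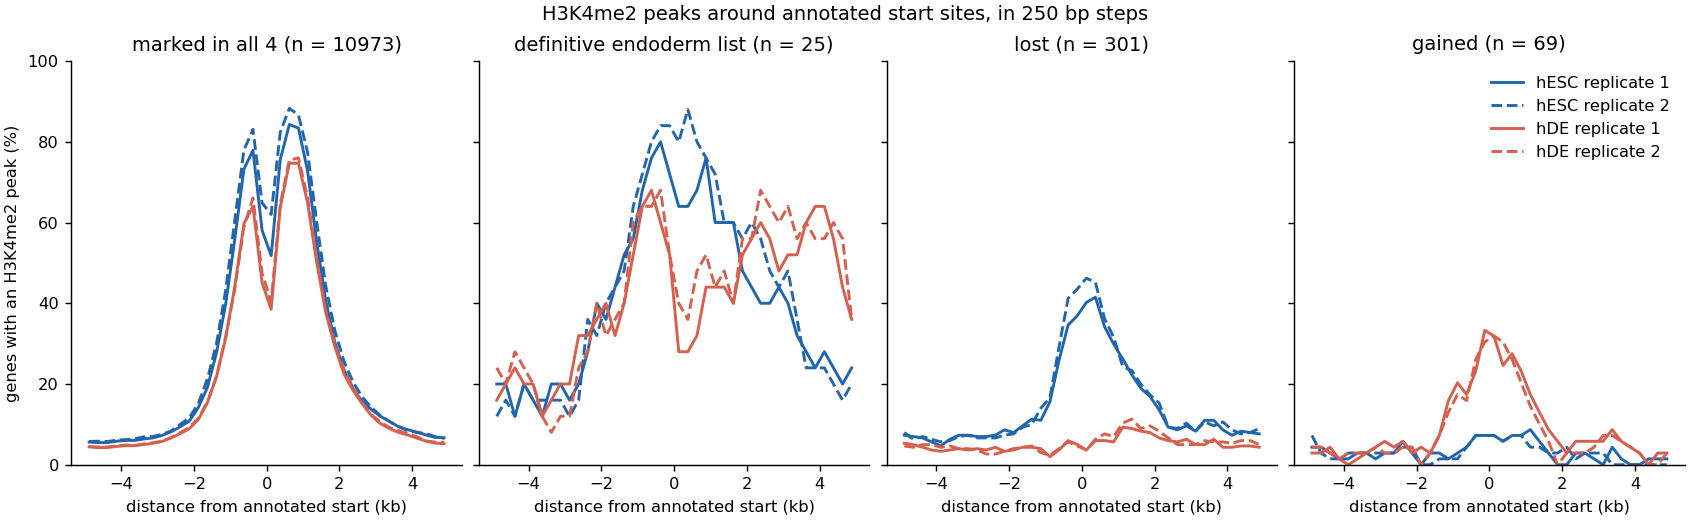
Percentage of genes with an H3K4me2 peak in each 250 bp step from 5 kb before to 5 kb after the annotated start, in 2 hESC (blue) and 2 hDE (red) libraries, for genes marked at an end in all 4 libraries, the definitive endoderm list, and genes lost or gained at gene ends. Genes marked in all 4 libraries show a dip at the start in both stages; in the definitive endoderm list the hDE curves drop to 28.0% and 40.0% just after the start, where the hESC curves stand at 64.0% and 80.0%, and lie above them from 3000 bp onwards.

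The strongest lost end of a list gene, that of CDH2, was of this kind. Its hESC peaks lay from 366 to 2402 bp after the start (fold enrichment 9.16) and from 261 to 2381 bp (13.2), with smaller ones just upstream. In hDE the nearest peaks began at 2470 and 2056 bp and ended at −1401 and −1471 bp, outside the 1 kb window. The end had H3K27ac in both hDE libraries and 1 hESC library, and H3K27me3 in both hESC libraries and no hDE library. The call of a loss at CDH2 ended with a 2.5 kb window and where absence had to reach a further 1 kb. Over all 408 lost genes, 133 (32.6%) had an hDE peak within the further 1 kb. H3K27ac in both hDE libraries was found at 20.3% of those 133 and at 6.55% of the other 275.

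TBX5, a T-box factor of the heart and forelimb, was lost at its start with other marks constant. Its nearest hESC peaks lay from −706 to −63 bp in replicate 1 and from −243 to 218 bp in replicate 2, and the nearest hDE peaks began at 2163 and 2216 bp. The end had no H3K27ac at either stage, and H3K27me3 in both libraries of both. CDX4, FGF23, RSPO1 and CDX1 likewise had no H3K27ac at either stage, and CDX4, RSPO1 and CDX1 had H3K27me3 in both libraries of both. The calls at TBX5, CDX4, CDX1, FGF23 and RSPO1 stood under every alternative run, and that at NOTUM under 4 of 11. GDF3 and DPPA4 were lost in H3K4me2 with H3K27ac present in both libraries of both stages. The call at GDF3, whose hESC peaks had fold enrichments of 3.99 and 2.37, ended with stricter p and with stricter q. Calls at DPPA4 and CLDN4 ended with the 2.5 kb window and where absence had to reach a further 1 kb, and that at DPPA4 also with the start alone. Among genes of no list, highly ranked losses were those of LOC124904770 (10.5 and 11.6), TANK (9.20 and 10.9), KNCN, MPP2, MXRA8, the receptor gene ADGRG5 (11.2 and 9.07), ELMO3 (8.24 and 10.5), the claudin gene CLDN9 (9.50 and 9.36) and ARID4B. Those at TANK, KNCN, MPP2, MXRA8 and ARID4B ended with a window of 500 bp and with one of 2.5 kb. Those at LOC124904770 and CLDN9 ended with the 2.5 kb window and where absence had to reach a further 1 kb, and those at ADGRG5 and ELMO3 stood.

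Gains at gene ends reached few genes, 1.89% of those unmarked in both hESC libraries. None of the 6 mesoderm, heart and blood genes that were unmarked there was among them, and 6 are too few to show a difference from that share. First by rank was MYL7, the atrial myosin light chain gene (6.08 and 6.26), with the nearest hESC peak at −3704 bp from its start. ANGPT2, an angiopoietin gene, followed (6.20 and 5.01), then PDZK1, a scaffold of membrane transporters (5.79 and 4.29), HNMT, which inactivates histamine (3.93 and 6.42), the growth factor gene IGF2 (4.38 and 4.69), VWF, the von Willebrand factor gene (5.22 and 3.53), ANKRD1, a muscle ankyrin repeat gene (5.18 and 3.40), NCR1, TNNC1, the cardiac troponin C gene (6.59 and 3.72), and KIF25. MYL7, ANGPT2, PDZK1, HNMT, VWF, ANKRD1 and NCR1 had H3K27ac in both hDE libraries. Over the 90 genes, 70.0% and 78.9% had H3K27ac at an end in the hDE libraries and 8.89% and 5.56% in the hESC libraries. Genes marked with H3K4me2 in all 4 libraries had it in 78.7% and 80.8% in hDE and in 66.5% and 69.3% in hESC. H3K27me3 in both hESC and neither hDE library was found at 2 of the 90 (2.22%), against 4.28% of all protein-coding genes. The calls at ANGPT2, PDZK1, HNMT, VWF and ANKRD1 stood under every alternative run, that at MYL7 ended with a 2.5 kb window, that at NCR1 with the start alone, and IGF2, TNNC1 and KIF25 ended with a 500 bp window and with a 200 bp overlap. ANKRD1 also had 4 gained distal regions, and 25 of the 90 genes (27.8%) were nearest to a gained distal region, against 20.2% of all genes.

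**Figure D5:**
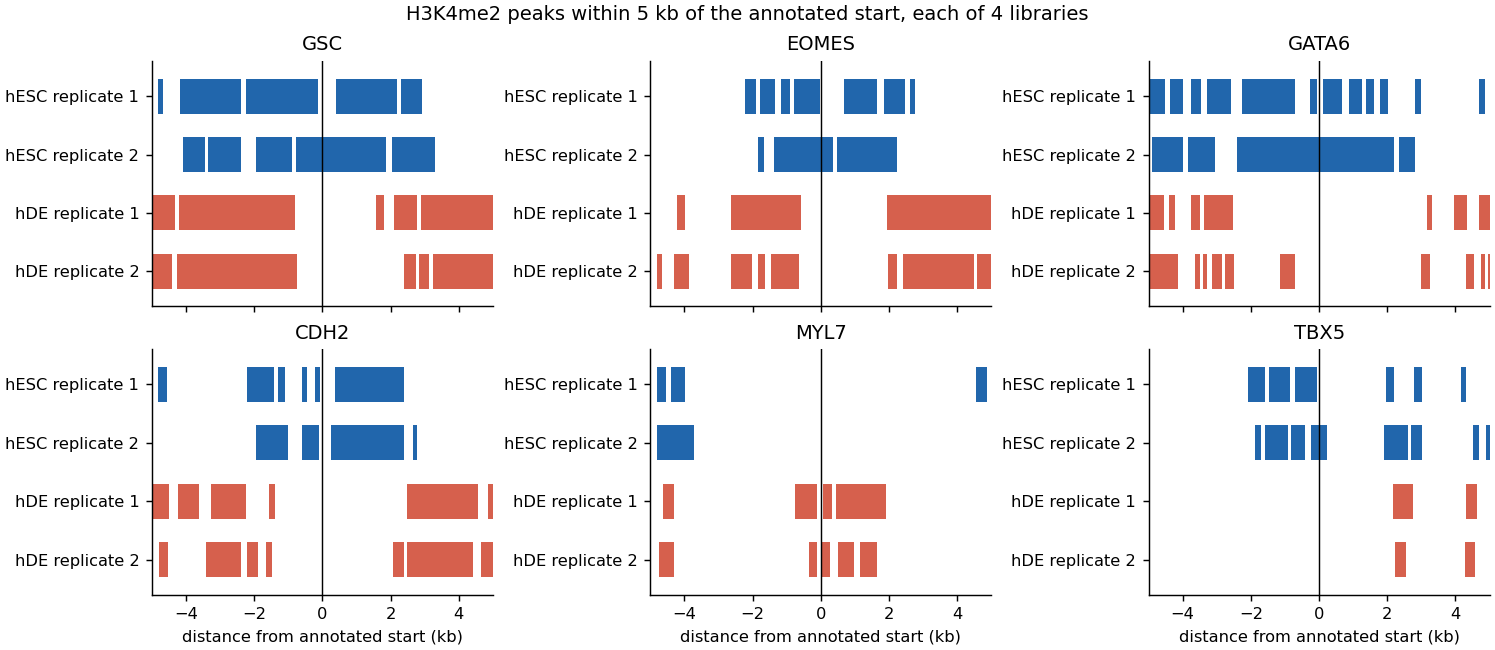
Position of H3K4me2 peaks within 5 kb of the annotated start (vertical line, transcription to the right) in each of the 4 libraries for 6 genes, hESC in blue and hDE in red. GSC, EOMES, GATA6 and CDH2 have hESC peaks near the start and hDE peaks on its outer sides, MYL7 has peaks at the start in hDE alone, and TBX5 in hESC alone.

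Promoter letters of 4 called genes, 2 of each direction, are shown for the peak patterns given above, a choice made after their values were seen. RefSeq (GRCh38.p14) gives the 250 bases before the start for 69 of the 90 gained and 301 of the 408 lost genes. The stretches of MYL7 (chr7:44141333-44141582, minus strand) and ANKRD1 (chr10:90921088-90921337, minus strand) overlap peaks of hDE alone, and those of CDH2 (chr18:28177131-28177380, minus strand) and TBX5 (chr12:114408013-114408262, minus strand) peaks of hESC alone. Capitals mark letters that match a searched motif on either strand.
MYL7: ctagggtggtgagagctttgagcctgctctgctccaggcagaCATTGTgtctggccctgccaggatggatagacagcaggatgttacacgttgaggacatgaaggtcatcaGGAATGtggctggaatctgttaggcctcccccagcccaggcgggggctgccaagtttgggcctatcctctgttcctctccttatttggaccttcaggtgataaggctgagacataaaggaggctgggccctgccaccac
ANKRD1: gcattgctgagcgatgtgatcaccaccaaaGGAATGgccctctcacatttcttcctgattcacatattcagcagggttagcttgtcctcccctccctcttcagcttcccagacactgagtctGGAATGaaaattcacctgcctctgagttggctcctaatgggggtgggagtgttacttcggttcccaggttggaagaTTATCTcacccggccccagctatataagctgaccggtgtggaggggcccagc
CDH2: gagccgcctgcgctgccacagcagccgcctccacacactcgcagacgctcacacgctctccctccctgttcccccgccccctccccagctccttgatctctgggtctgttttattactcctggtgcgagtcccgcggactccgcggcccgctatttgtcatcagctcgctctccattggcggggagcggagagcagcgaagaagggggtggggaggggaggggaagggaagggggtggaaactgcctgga
TBX5: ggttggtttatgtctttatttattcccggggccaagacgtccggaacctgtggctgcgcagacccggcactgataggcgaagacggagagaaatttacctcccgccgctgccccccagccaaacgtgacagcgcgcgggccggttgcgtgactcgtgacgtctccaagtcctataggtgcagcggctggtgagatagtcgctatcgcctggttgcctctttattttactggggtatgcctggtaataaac
MYL7 and ANKRD1 hold 2 and 4 CpG dinucleotides in these 250 bases, and CDH2 and TBX5 hold 17 and 20. Of the other named genes read in the same way, PDZK1 and HNMT, both gained, hold 4 and 2, and LOC124904770 and ELMO3, both lost, hold 21 and 11.

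Over all genes called at ends the CpG counts lay lower than over all promoters. The median CpG count was 3 for gained genes and 7 for lost genes, against 17 over all 15811 promoters, and the median GC content was 50.8%, 58.8% and 62.4%. Promoters with no H3K4me2 peak on these 250 bases in any of the 4 libraries had a median of 7 CpG. Where the peaks were required on these 250 bases themselves, the 83 promoters marked in both hDE libraries alone had a median of 18 CpG and the 1032 marked in both hESC libraries alone 19, so the low medians were found under the 1 kb rule at either gene end and not under this one. On both strands, the letters AGATAA were searched for zinc finger factors of the GATA4 and GATA6 kind, TGTTTAC for forkhead factors, CACACCT for T-box factors, TAATCC for the homeodomains of GSC and OTX2, ATGCAAA for the octamer, ACAATG for SOX factors and GGAATG for TEAD factors. ANKRD1 holds GGAATG at 2 places and AGATAA once, MYL7 holds GGAATG and the SOX letters once each, and CDH2 and TBX5 hold none. AGATAA was found in 11.6% of gained-gene promoters and 11% of lost-gene promoters, against 6.84% of all promoters and 9.96% of those with no peak. GGAATG was found in 13%, 14.3%, 10.1% and 10.6% in the same order. Gained and lost genes thus had like shares of both motifs. Overlap between these motifs was not looked at, and a match is a match of letters only.

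By chromosome, gains made up 31.5% to 43.3% of the changed distal regions on the autosomes other than 19. Chromosome 19 had 96 gained and 365 lost distal regions (20.8% gained), and X had 62 gained and 292 lost (17.5%). Across the alternatives the share on X moved from 5.81% to 51.4%, the highest where an hDE library was left out, and it stayed below the share over all chromosomes in each.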

How the data were processed

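ChIP-seq peak lists of single libraries were used for H3K4me2, H3K27ac and H3K27me3. Per the submitters' processing notes the build is hg38. The authors deposited 1 narrowPeak list per library, called against an input at p of 0.01 on alignments without duplicates, as the deposited files' names state. The deposited columns used were the authors' fold enrichment over input (a ratio) and −log10 p and q. The aligner and peak caller were not given in the sources used here, and read depth is unknown. Overlapping peaks on chromosomes 1 to 22 and X were merged across the 4 H3K4me2 lists, and 1 bp of overlap counted. Gene ends, names and promoters came from the RefSeq table of GRCh38.p14 (59094 genes, 19970 protein-coding). Percentages were compared over libraries by two-sided exact permutation tests with Benjamini-Hochberg adjustment over 4 tests. Scripts in Python 3.11.15 with pandas 2.3.3, numpy 2.4.6 and scipy 1.17.1 were tested on simulated peaks.

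Named were up to 20 called list genes and 10 other called genes per direction by within-list rank, 12 distal regions and 15 nearest genes per direction, list genes with 3 or more distal regions, and marker genes. Members, lists and rules were chosen with earlier results of these data known. Alternatives were stricter p or q, equal list length, 200 bp overlap, absence within a further 1 kb, other windows and distances, genes of any type, and each replicate left out. A few named genes and regions are not reported here.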

Additional observations from a re-analysis of the deposited data

How the results depend on the processing

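Counts depended on the peak threshold and on replicate agreement. With −log10 p of 5 or more, −log10 q of 2 or more and 200 bp of overlap, gained distal regions numbered 2054, 2983 and 4243. Lost distal regions numbered 5701 and 8160 under the first and second of these. Leaving out 1 H3K4me2 library gave 8983 to 41550 gained and 14752 to 55342 lost distal regions. Of the 15 genes with most gained regions, 6 (p), 9 (q), 9 (200 bp overlap) and 7 (nearest gene of any type) were again among the first 15, and 4 to 12 with a library left out. For lost regions these were 8 (p), 8 (q), 1 (any type) and 8 to 13. Genes gained at ends numbered 32 (p), 41 (q), 59 (200 bp overlap) and 54 (annotated start only), and 113 to 260 with a library left out. Genes lost at ends numbered 711 with a 500 bp window, 258 at the start only, and 589 to 829 with a library left out. Without subtraction of constant regions, H3K27me3 differences turned to 1.41 points on gained and −0.649 points on lost regions. Of the named calls, 12 of 30 gene ends and 9 of 24 distal regions stood under every alternative run. No paired analysis was possible because calls rest on presence of peaks in all libraries of a stage and no model was fitted to them. Read depth is unknown, so absence of a peak is absence from a list and not of the mark.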
